A study of Mus musculus with 79 samples.

Results

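The acetylcholine receptor genes described here are 10: the 5 muscarinic receptor genes Chrm1, Chrm2, Chrm3, Chrm4 and Chrm5, and the nicotinic subunit genes Chrna3, Chrna4, Chrna5, Chrna7 and Chrnb2. They were chosen by name, and all 10 were found by symbol among the 25899 genes of the deposited table. Muscarinic receptors are G protein-coupled: the products of Chrm1, Chrm3 and Chrm5 act through Gq and phospholipase C, and those of Chrm2 and Chrm4 through Gi/o, which lowers cyclic AMP. Nicotinic receptors are cation channels of several subunits; Chrna4 and Chrnb2 products form the main high-affinity nicotine receptor of the brain, to which the Chrna5 product can be added, Chrna7 products can form a channel on their own, and the Chrna3 product is best known from autonomic ganglia. In striatum acetylcholine comes mainly from local cholinergic interneurons, and the M4 receptor of striatal projection neurons opposes dopamine D1 receptor signalling there.

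The study profiled ribosome-bound mRNA from 2 kinds of neurons that receive dopamine. Every mouse carried a bacterial artificial chromosome transgene encoding ribosomal protein L10a fused to eGFP, driven by either the dopamine D1a or the D2 receptor promoter, and was heterozygous on a C57BL/6J background. No treatment groups are labelled. Each library pooled tissue of 3 mice, by the series description with both sexes in every pool; the labels of 2 cortical libraries name the sex of 1 mouse only. The 79 libraries formed 5 groups: D1 dorsal striatum (15), D2 dorsal striatum (16), D1 ventral striatum (15, punched from the nucleus accumbens), D2 ventral striatum (14) and D1 prefrontal cortex (19); no D2 cortex group was analysed here. A tagged library holds every cell in the piece that uses the promoter, and the D2 receptor promoter is known to be active in striatal cholinergic interneurons as well as in projection neurons. In such bulk samples fewer cells of a type and less RNA per cell cannot be told apart.

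Levels are in CPM, read counts that the authors scaled to a library total. Reads in genes ran from 7.35 M to 30.8 M per library (median 17.5 M), and 1 read was worth 0.0124 to 0.0466 CPM. The dopamine receptor genes matched the labels in every striatal library: Drd1a lay between 139 and 288 CPM in D1 and between 6.86 and 40.6 in D2, and Drd2 between 2.16 and 16.2 CPM in D1 and between 337 and 1596 in D2. In prefrontal cortex, Drd1a was at 9.52 to 44.8 CPM, which overlaps the D2 striatal range. Its level alone therefore does not check the D1 label there. Drd2 was at 0.209 to 2.46 CPM in these cortical libraries. The summed level of 5 striatal projection neuron markers was 70.9 to 380 CPM in cortex against 1319 to 3902 in striatum. Library names start with 1 of 4 letter codes whose meaning is not given (EM, 53 libraries; OdP, 14; BdP, 9; JAG, 3). OdP names made up 8 of 16 D2 dorsal and 5 of 14 D2 ventral libraries, 1 of 15 D1 ventral libraries and 0 in the other groups, so values for EM libraries alone are given where they change a call. Within D2 dorsal striatum, EM and OdP libraries differed in 30.2% of 10939 genes tested, and in 0 of the 7 receptor genes tested by limma (0 also at an unadjusted p below 0.05; smallest adjusted p = 0.162, for Chrna4). Farthest from its group's median profile stood D1 dorsal striatum replicate 13, with a root mean square log2 distance of 0.913 against a group median of 0.301; it held the group's lowest Chrm1, Chrm4, Chrna7 and Chrnb2 values.

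Each test used limma on log2(CPM + 0.5), with Benjamini-Hochberg adjustment over all genes tested and a call at an adjusted p below 0.05. Differences are on that scale, which understates changes of low genes, and folds are 2 to the power of the difference. A gene was tested if the number of libraries at or above 1 CPM was no smaller than the smaller of the groups compared. Chrm1, Chrm2, Chrm3, Chrm4, Chrna4, Chrna7 and Chrnb2 passed in every comparison. Chrm5, Chrna3 and Chrna5 passed in none, and their tests come from the same fit without the filter.

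The promoters of the 3 genes that separated D1 from D2 neurons in dorsal striatum are shown first, as the windows that RefSeq gives for the genes whose levels differed. Each runs from 250 bases before to 50 bases after a RefSeq start (GRCm38.p6), 5′ to 3′ on the gene's own strand, with the GC box GGGCGG or its reverse complement CCGCCC in capitals.
Chrm4: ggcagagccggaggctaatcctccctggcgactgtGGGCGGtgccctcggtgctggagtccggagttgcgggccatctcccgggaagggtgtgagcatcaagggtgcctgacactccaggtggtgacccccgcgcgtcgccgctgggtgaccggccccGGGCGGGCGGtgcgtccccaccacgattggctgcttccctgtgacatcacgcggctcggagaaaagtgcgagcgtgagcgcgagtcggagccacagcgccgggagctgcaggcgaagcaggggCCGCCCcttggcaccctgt
Chrna4: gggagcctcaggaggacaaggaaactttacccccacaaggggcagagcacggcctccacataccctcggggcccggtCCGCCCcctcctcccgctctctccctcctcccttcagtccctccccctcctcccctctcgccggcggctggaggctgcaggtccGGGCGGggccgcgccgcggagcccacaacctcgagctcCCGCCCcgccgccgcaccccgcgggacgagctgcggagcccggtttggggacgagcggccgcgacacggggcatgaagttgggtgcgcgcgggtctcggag
Chrm3: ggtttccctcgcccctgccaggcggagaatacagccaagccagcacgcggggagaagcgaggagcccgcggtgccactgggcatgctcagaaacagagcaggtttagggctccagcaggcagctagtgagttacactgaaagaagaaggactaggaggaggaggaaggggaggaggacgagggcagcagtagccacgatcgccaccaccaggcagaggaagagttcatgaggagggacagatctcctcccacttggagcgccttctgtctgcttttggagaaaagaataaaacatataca
The Chrm4 window lies at chr2:91921939-91922238 (plus strand), the Chrna4 window at chr2:181039128-181039427 (minus) and the Chrm3 window at chr13:10360754-10361053 (minus). The gene models differ in where they start: the Chrna4 window lies inside the GENCODE M21 model of that gene, the Chrm3 window overlaps the 5′ end of its model, and the Chrm4 window lies upstream of its coding-only model. The RefSeq span of Chrm3 ends at 10361062, upstream of its window, so that window does not follow the outermost RefSeq start. Which start was used in these cells was not measured. By letters alone the Chrm4 window held 4 GC box matches, of which a pair overlaps, the Chrna4 window held 3 and the Chrm3 window 0. G or C made up 70.7% of the Chrm4 window, 74.3% of the Chrna4 window and 57.3% of the Chrm3 window, against a median of 52.7% over 32851 RefSeq promoters of that length. A GC box was present in 35.7% of those promoters. The other motifs searched on both strands were the E box CANNTG (72.3% of all promoters; 1 match in Chrm4, 0 in Chrna4, 1 in Chrm3), the cyclic AMP response element TGACGTCA (1.79%; 0 in all 3) and TATAAA (13.6%; 0 in all 3). Of the 10 genes, 9 matched the promoter table, and Chrm1 did not.

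The clearest difference among the 10 genes was that of Chrm4, the Gi-coupled M4 receptor gene, which was higher in D1 than in D2 neurons in both parts of the striatum and lower in cortex than in either D1 striatal group. Chrm4 has a single-exon coding model at chr2:91927249-91928688 on the plus strand (GENCODE M21, GRCm38), 1440 bases long, while the RefSeq span also takes in the upstream start shown above. It was at 11.6 to 27.6 CPM in D1 dorsal libraries (median 20.8; mean 21.3 ± 3.92 SD, n = 15) and at 0.219 to 3.22 CPM in D2 dorsal libraries (median 1.61; 1.63 ± 0.67 SD, n = 16). Every D1 dorsal library was above every D2 dorsal library. The log2 difference was 3.41 (SE 0.15, adjusted p = 6.44e-20), a 10.6-fold difference. In ventral striatum the levels were 8.62 to 18.2 CPM in D1 (median 11.9; 12.5 ± 2.39 SD, n = 15) and 0.524 to 2.76 CPM in D2 (median 1.502; 1.47 ± 0.70 SD, n = 14), again without overlap. There the difference was 2.79 (SE 0.15, adjusted p = 6.49e-17), a 6.91-fold difference.

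Within D1 neurons Chrm4 stood above its ventral level in the dorsal striatum by 0.75 (SE 0.10, adjusted p = 2.94e-07), with 13 of 15 dorsal libraries above every ventral one. Without D1 dorsal striatum replicate 13 the difference was 0.81. Within D2 neurons the same difference was 0.12 (SE 0.19, adjusted p = 0.677) and was not called. The receptor difference in dorsal less that in ventral striatum was 0.62 (SE 0.22, adjusted p = 0.113), not called, but it was called in EM libraries alone (0.76, adjusted p = 0.0475), with a pseudocount of 1 (0.63) and with genic read share in the model (0.72, adjusted p = 0.0393); over its alternatives the adjusted p ran from 0.0361 to 0.307. In D1 prefrontal cortex Chrm4 was at 2.32 to 5.96 CPM (median 3.44; 3.51 ± 0.87 SD, n = 19), below every D1 striatal library. The log2 difference was -2.45 against dorsal (SE 0.11, adjusted p = 1.77e-22) and -1.70 against ventral striatum (SE 0.10, adjusted p = 8.21e-19). The highest cortical library was replicate 10, the one farthest from its group's median profile. In the fit over all 5 groups, D1 cortex stood above D2 dorsal striatum by 0.96 (SE 0.13, adjusted p = 1.19e-09), and only the D2 dorsal and D2 ventral groups were neighbours that did not differ beyond their spread.

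Chrm2, the other Gi-coupled receptor gene (chr6:36388084-36528414, plus strand), was high in D1 prefrontal cortex and low in all striatal groups. Cortical libraries held 5.52 to 11.3 CPM (median 8.13; 8.24 ± 1.80 SD, n = 19). The striatal ranges were 0.528 to 3.75 CPM in D1 dorsal, 0.415 to 3.43 in D2 dorsal, 0.640 to 3.44 in D1 ventral and 0.846 to 3.40 in D2 ventral libraries, with medians of 1.46, 1.19, 1.46 and 2.02. No cortical library overlapped any striatal one. The difference was 2.04 against D1 dorsal (SE 0.15, adjusted p = 2.12e-15; 4.11-fold) and 2.06 against D1 ventral striatum (SE 0.12, adjusted p = 6.44e-19; 4.16-fold). Neither receptor comparison called Chrm2: D1 minus D2 was 0.30 in dorsal (SE 0.20, adjusted p = 0.279) and -0.14 in ventral striatum (SE 0.17, adjusted p = 0.520). Dorsal minus ventral was 0.02 in D1 (SE 0.17, adjusted p = 0.952) and -0.42 in D2 neurons (SE 0.20, adjusted p = 0.117). The last of these was called without D2 dorsal striatum replicate 6, at -0.50 (adjusted p = 0.0421), and with all 5 groups in the fit (adjusted p = 0.0495). Cholinergic neurons are known to carry Chrm2, and the 7 cholinergic markers in the table summed to 8.93 to 25.3 CPM in D2 ventral and 3.76 to 23.4 CPM in D2 dorsal libraries, against 1.66 to 5.94 and 0.833 to 3.40 CPM in the matching D1 groups. None of the 7 was at 0 in every library of a striatal group, and their part in the Chrm2 level was not tested.

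Chrm3, a Gq-coupled receptor gene (chr13:9875486-10360847, minus strand), was higher in D2 than in D1 neurons of the dorsal striatum and highest by mean in D1 cortex. D2 dorsal libraries held 1.35 to 6.06 CPM (median 3.47; 3.60 ± 1.32 SD, n = 16) and D1 dorsal libraries 0.447 to 2.33 CPM (median 1.39; 1.35 ± 0.55 SD, n = 15). Of the D2 libraries 14 were above every D1 library. D1 minus D2 was -1.14 (SE 0.18, adjusted p = 4.22e-06), or 2.21-fold lower in D1, and -1.06 in EM libraries alone. In ventral striatum the ranges were 0.237 to 1.65 CPM in D1 (median 1.00) and 0.465 to 2.25 CPM in D2 (median 1.25). These overlapped widely, and the difference of -0.37 (SE 0.18, adjusted p = 0.0921) was not called. Quantile normalization (-0.44, adjusted p = 0.0363) and the fit without D2 ventral striatum replicate 14 (-0.43, adjusted p = 0.0469) did call it.

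Within D2 neurons Chrm3 was above its ventral level in dorsal libraries by 1.18 (SE 0.18, adjusted p = 3.15e-06; 2.27-fold), with 14 of 16 dorsal libraries above every ventral one. In D1 neurons dorsal minus ventral was 0.40 (SE 0.18, adjusted p = 0.0750), not called. It was called under median-ratio scaling (0.48), quantile normalization (0.54) and a model with each library's genic read share (0.42). That share is the percent of a library's scaling total that falls in listed genes. It was also called with a block by sets of consecutive library names, an assumed pairing given in the last paragraph. Whether the receptor difference itself differed between regions gave -0.78 (SE 0.25, adjusted p = 0.0844), not called. A pseudocount of 1 (-0.68), quantile normalization (-0.82), all 5 groups in the fit and the same block called it. The adjusted p ran from 0.0361, with the block, to 0.213 over its alternatives. In cortex Chrm3 was at 2.00 to 7.48 CPM (median 5.57; 5.61 ± 1.196 SD, n = 19). Replicate 10 was the low library at 2.00 CPM, and 18 of 19 cortical libraries were above every D1 dorsal one. The difference was 1.76 against D1 dorsal (SE 0.14, adjusted p = 4.44e-14; 3.39-fold) and 2.17 against D1 ventral striatum (SE 0.14, adjusted p = 7.72e-17; 4.49-fold). Summed markers of cortical glutamatergic neurons, which are known to express Chrm3, were at 33.2 to 141 CPM in D1 dorsal libraries. In D2 dorsal libraries, where Chrm3 was higher, they were at 1.56 to 37.2 CPM. The sums, like Chrm3, had their highest median in D1 cortex. Between regions the sums had medians of 101 CPM in D1 dorsal and 66.2 in D1 ventral libraries. In D2 dorsal and D2 ventral libraries these were 8.31 and 11.3 CPM. Chrm3 had the higher median dorsally in both lines. The part of these cells in the Chrm3 level was not tested.

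Chrm1, the gene of the M1 receptor (chr19:8663789-8683587, plus strand), was the most abundant of the 10 by mean CPM in every group and separated the groups little. It was at 23.3 to 74.4 CPM in D1 dorsal (median 53.1), 31.9 to 72.1 in D2 dorsal (55.7), 30.7 to 59.0 in D1 ventral (40.2), 16.5 to 46.7 in D2 ventral (31.0) and 33.0 to 57.7 CPM in D1 cortex libraries (43.3). All 5 ranges overlapped. D1 minus D2 was -0.07 in dorsal striatum (SE 0.13, adjusted p = 0.711). In ventral striatum it was 0.37 (SE 0.13, adjusted p = 0.0204; 1.29-fold), a call lost in EM libraries alone (0.34, adjusted p = 0.0685) and with genic read share in the model (0.31, adjusted p = 0.293). That share was 35.1% ± 1.64 (SD, n = 15) in D1 ventral libraries. In D2 ventral libraries it was 38.0% ± 1.505 (SD, n = 14). Chrm1 of D2 neurons was higher dorsally, by 0.72 (SE 0.14, adjusted p = 1.30e-04; 1.65-fold), with 11 of 16 dorsal libraries above every ventral one. In D1 neurons the regional difference was 0.28 (SE 0.12, adjusted p = 0.0721); it was called at 0.36 without D1 dorsal striatum replicate 13, at 0.39 under median-ratio scaling, at 0.35 under quantile normalization and at 0.42 in edgeR. The cortical differences were -0.19 against dorsal (SE 0.11, adjusted p = 0.132) and 0.09 against ventral striatum (SE 0.08, adjusted p = 0.370). The first was called at -0.27 without D1 dorsal striatum replicate 13 (adjusted p = 0.0120), at -0.26 under median-ratio scaling and at -0.32 in edgeR.

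Chrm5, the third Gq-coupled receptor gene and one known from midbrain dopamine neurons, was low everywhere and had 0 reads in all 19 cortical libraries. Its coding model lies at chr2:112479171-112480769 on the minus strand. D1 ventral libraries held 0.348 to 1.57 CPM (median 0.994; 0.892 ± 0.342 SD, n = 15), from 17 to 97 reads each. D1 dorsal libraries held 0 to 0.431 CPM (median 0.129), with 2 of 15 at 0, and 13 of 15 ventral libraries were above all of them. D2 dorsal libraries held 0 to 0.565 CPM (median 0.331), with 5 of 16 at 0, of which 4 were OdP libraries. D2 ventral libraries held 0 to 1.32 CPM (median 0.227), with 2 of 14 at 0. Pooled over the group, 670 reads in D1 ventral striatum gave 0.911 CPM, at least 264-fold higher than the 0.00345 CPM that 3 reads over all cortical libraries would give. D1 dorsal striatum, with 122 reads, was at least 49.98-fold higher on the same floor. These limits cover counting error only, since cDNA was amplified and reads are not independent molecules.

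Without the filter, Chrm5 was higher in D1 than in D2 ventral striatum by 0.81 (SE 0.18, adjusted p = 0.00104), a call lost with genic read share in the model (0.74, adjusted p = 0.0820). Its dorsal receptor difference was -0.14 (SE 0.13, adjusted p = 0.513), and -0.42 in EM libraries alone (adjusted p = 0.0498). In D1 neurons dorsal minus ventral striatum was -1.03 (SE 0.12, adjusted p = 4.20e-08), and in D2 neurons -0.09 (SE 0.18, adjusted p = 0.786). Cortex was lower than D1 dorsal striatum by a fitted -0.40 (adjusted p = 7.43e-07) and lower than D1 ventral striatum by -1.43 (adjusted p = 1.02e-16), values that depend on the pseudocount. Slc6a3, the dopamine transporter gene and a midbrain dopamine neuron marker, was also highest in D1 ventral striatum, at 0.0329 to 0.786 CPM and above 0 in 15 of 15 libraries, while its mean was 0.0767 CPM or less in every other group. The other 3 genes of that list were not highest there. Ddc had a mean of 2.45 CPM in D1 ventral and 3.28 in D2 ventral striatum, Slc18a2 of 1.26 and 2.52, and Th of 2.31 in D1 ventral striatum and 5.40 in D1 cortex, where Chrm5 was lowest. The 4 midbrain dopamine markers together summed to 5.06 to 10.2 CPM in D1 ventral, 4.56 to 11.6 in D2 ventral, 1.63 to 3.62 in D1 dorsal, 1.35 to 4.16 in D2 dorsal and 4.26 to 12.6 CPM in D1 cortex libraries. None of the 4 was at 0 throughout a group, and their part in the Chrm5 level was not tested. In RefSeq the Chrm5 span overlaps that of Aven over 43479 bases.

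**Figure D1:**
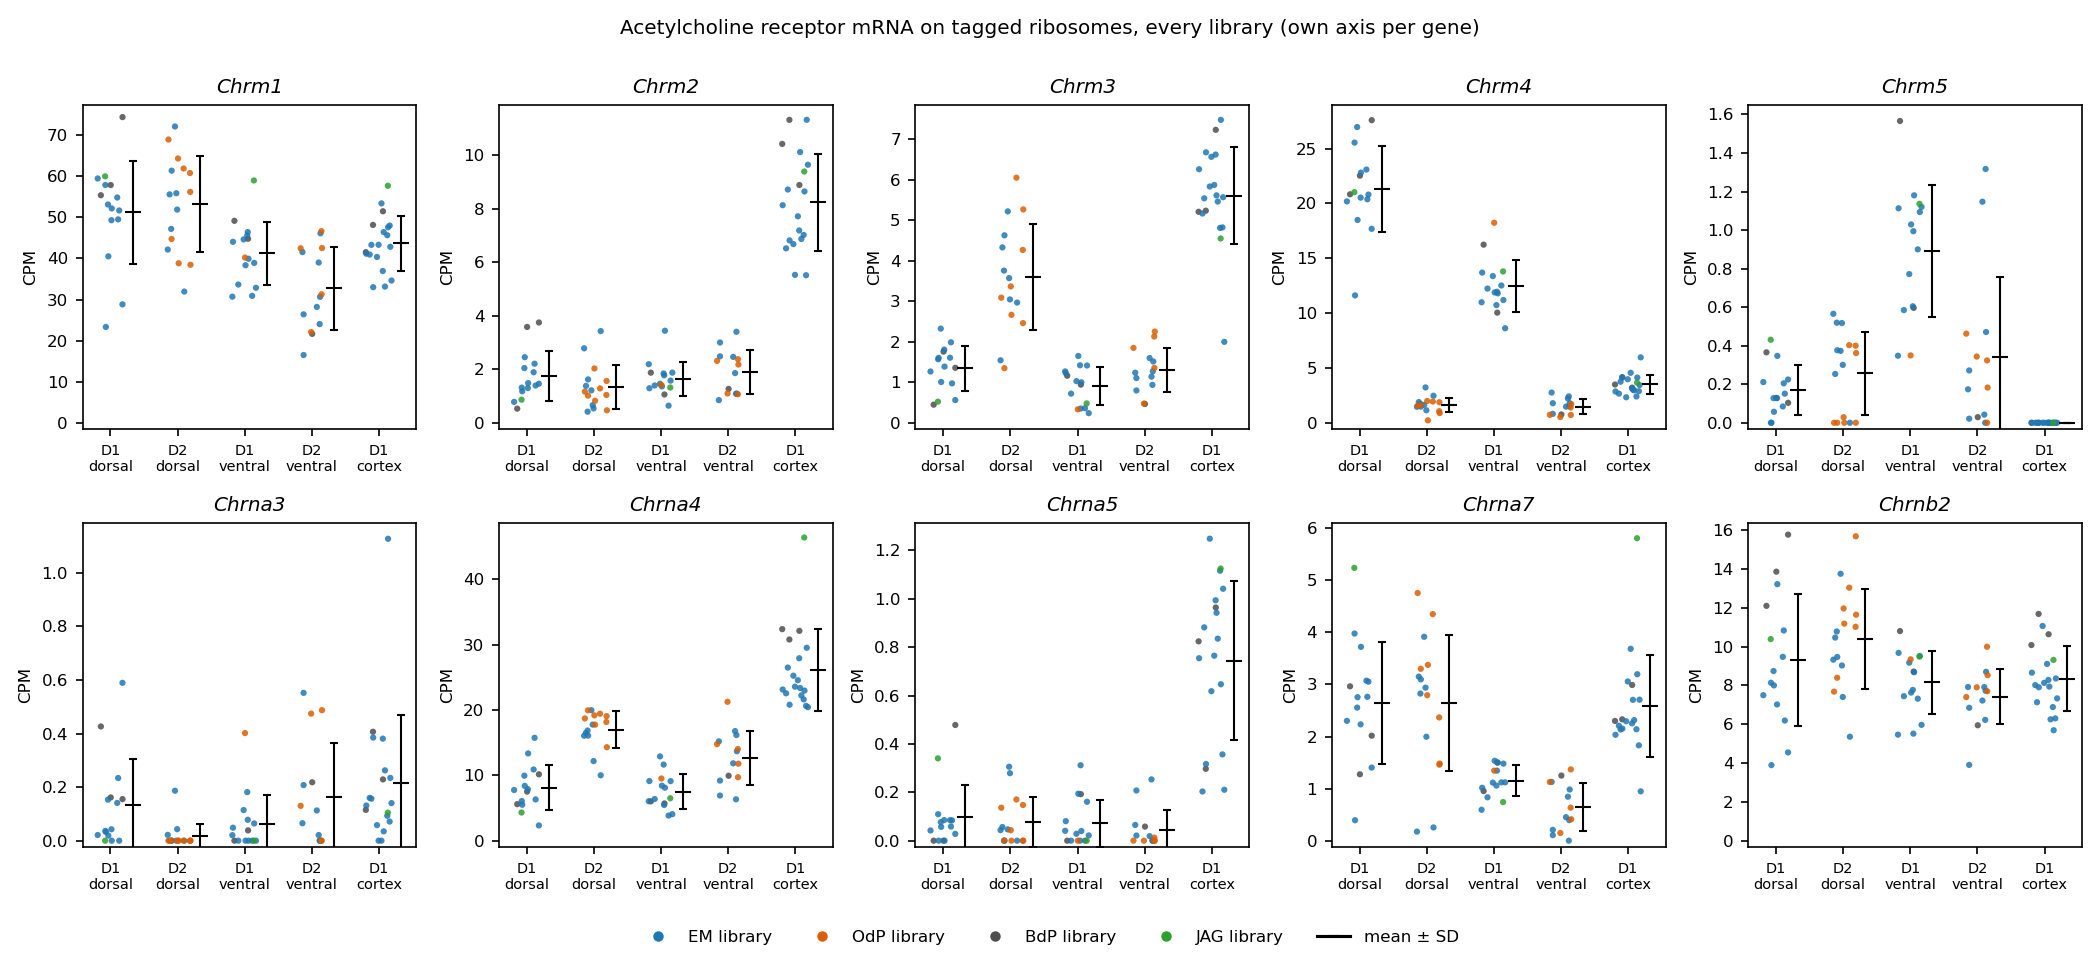
CPM of each of the 10 receptor genes (vertical axis, separate linear scale per gene) in every library of the 5 groups (horizontal axis), coloured by library name code, with bars for the group mean ± SD. Chrm4 separates D1 from D2 striatal libraries without overlap, Chrm2 separates cortex from striatum, and Chrm5 lies at 0 in all 19 cortical libraries.

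Among the nicotinic subunit genes Chrna4 differed between D1 and D2 neurons in both striatal parts, and Chrna7 between dorsal and ventral striatum in both lines. Chrnb2, the usual partner of Chrna4, differed in 1 comparison of 6. Chrna4 (chr2:181018380-181043546, minus strand) was higher in D2 than in D1 neurons of both striatal parts and had its highest group mean in D1 cortex. Levels were 2.33 to 15.7 CPM in D1 dorsal (median 7.75; 8.11 ± 3.48 SD, n = 15) and 10.0 to 20.0 CPM in D2 dorsal libraries (median 17.8; 16.99 ± 2.82 SD, n = 16). Of the D2 libraries, 13 were above every D1 library. D1 minus D2 was -1.12 (SE 0.16, adjusted p = 1.66e-06; 2.17-fold lower in D1). In ventral striatum the levels were 3.84 to 12.9 CPM in D1 (median 6.49) and 6.33 to 21.2 CPM in D2 (median 12.8), with overlap. The difference there was -0.72 (SE 0.17, adjusted p = 7.01e-04; 1.65-fold lower in D1), and -0.61 in EM libraries alone (adjusted p = 0.0280).

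Between regions Chrna4 differed in D2 libraries, where dorsal minus ventral was 0.46 (SE 0.14, adjusted p = 0.0104), a call lost in EM libraries alone (0.42, adjusted p = 0.153). In D1 neurons the regional difference was 0.06 (SE 0.19, adjusted p = 0.848). Cortical libraries held 20.4 to 46.4 CPM (median 23.6; 26.1 ± 6.22 SD, n = 19), and each was above every D1 striatal library. The difference was 1.72 against D1 dorsal (SE 0.15, adjusted p = 8.30e-13; 3.29-fold) and 1.77 against D1 ventral striatum (SE 0.13, adjusted p = 4.89e-16; 3.42-fold). In the fit over all groups the order of Chrna4 was D1 cortex, D2 dorsal, D2 ventral, D1 dorsal and D1 ventral striatum, and the last pair of neighbours alone did not differ beyond its spread.

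Chrnb2 (chr3:89746195-89764632, minus strand) had group means from 7.42 to 10.4 CPM, and no pair of neighbours in its order differed. Its ranges were 3.89 to 15.8 CPM in D1 dorsal (median 8.74), 5.36 to 15.7 in D2 dorsal (10.6), 5.46 to 10.8 in D1 ventral (8.68), 3.91 to 9.99 in D2 ventral (7.71) and 5.69 to 11.7 CPM in D1 cortex libraries (8.13). Dorsal minus ventral in D2 neurons was its one call, at 0.44 (SE 0.13, adjusted p = 0.00790), and that call was lost in EM libraries alone (0.38, adjusted p = 0.143). The other 5 differences lay between -0.20 and 0.13. In the GENCODE models Chrnb2 shares 1365 exon bases, 16.3% of its exon length, with Adar on the opposite strand, and strand-specific counting is not stated, so reads there cannot be told apart.

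Chrna7 (chr7:63098692-63212569, minus strand), whose product forms fast calcium-permeable channels, was lower in ventral striatum than elsewhere. It was at 0.393 to 5.24 CPM in D1 dorsal (median 2.76), 0.174 to 4.76 in D2 dorsal (2.88), 0.594 to 1.53 in D1 ventral (1.12), 0 to 1.37 in D2 ventral (0.543) and 0.947 to 5.81 CPM in D1 cortex libraries (2.30). A few dorsal libraries lay within or below the ventral range, and the others stood above it: 12 of 15 in D1 and 14 of 16 in D2 neurons. Dorsal minus ventral was 0.84 in D1 (SE 0.17, adjusted p = 2.49e-04; 1.79-fold) and 1.39 in D2 neurons (SE 0.26, adjusted p = 8.78e-05; 2.62-fold). The interaction was not called (-0.55, SE 0.32, adjusted p = 0.430). D1 minus D2 was 0.62 in ventral striatum (SE 0.18, adjusted p = 0.00469; 1.54-fold), a call lost with genic read share in the model (0.36, adjusted p = 0.368), and 0.07 in dorsal striatum (SE 0.26, adjusted p = 0.854). D1 cortex was above D1 ventral striatum by 0.87 (SE 0.12, adjusted p = 8.64e-08), and its difference from D1 dorsal striatum was 0.03 (SE 0.17, adjusted p = 0.911).

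Chrna5 (chr9:54980880-55007779, plus strand), the accessory subunit gene, was measurable mainly in D1 cortex. Cortical libraries held 0.203 to 1.25 CPM (median 0.824; 0.744 ± 0.329 SD, n = 19), or 6 to 60 reads each, and all 19 were above 0. Striatal medians were 0.0585 CPM or less, and 4 of 15 D1 dorsal, 7 of 16 D2 dorsal, 6 of 15 D1 ventral and 7 of 14 D2 ventral libraries were at 0. Without the filter the cortical difference was 1.03 against D1 dorsal (SE 0.12, adjusted p = 8.94e-09) and 1.09 against D1 ventral striatum (SE 0.12, adjusted p = 9.28e-10). Chrna3 (chr9:55010111-55026562, minus strand) stayed at or near 0, with group medians from 0 to 0.140 CPM and a highest library of 1.13 CPM in cortex. Unfiltered tests called it in D1 against D2 dorsal striatum (0.26), dorsal against ventral D2 (-0.31) and cortex against ventral striatum (0.30), on 7 to 209 reads per group. The first 2 calls were lost in EM libraries alone (0.18 and -0.18) and with genic read share in the model (adjusted p = 0.0569 and 0.0546). The D2 regional call was also lost with the block by sets of library names given in the last paragraph. Chrna3 and Chrna5 are neighbours on chromosome 9, and their RefSeq spans overlap by 1304 bases on opposite strands.

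The counts of receptor genes called are read against the share of all genes called in the same comparison. D1 against D2 in dorsal striatum called 3 of 7 (1 higher, 2 lower) against 25.9% of 11090 genes tested, and ventral striatum called 4 of 7 (3 higher, 1 lower) against 47.7% of 11410. Dorsal against ventral striatum called 2 of 7 in D1 neurons (both higher) against 34.6% of 11332 genes, with 1144 genes called higher and 2774 lower. In D2 neurons it called 5 of 7 (all 5 higher) against 28.5% of 11187, with 887 genes called higher and 2302 lower. In EM libraries alone it called 2 of 6 tested against 19.8% of 11288: Chrm1 and Chrm3 were called, Chrna4 and Chrnb2 lost the call, and Chrna7 did not pass the filter there. In both regional comparisons the median dorsal minus ventral difference of all genes lay at -0.12, and the differences given here are not centred on it. Cortex called 4 of 7 against dorsal (54.8% of 11654) and 5 of 7 against ventral striatum (62.8% of 11749). The interaction of receptor and region called 0 of 7 by limma, with 3 at an unadjusted p below 0.05 (Chrm1, Chrm3 and Chrm4), against 2.64% of 11873 genes. edgeR called 0 of 7 in it, against 2.53% of those genes. Without the filter, and in the same order of comparisons, limma called 4, 5, 3, 6, 6, 8 and 1 of the 10 genes, while the shares of all genes were 17.2%, 29.9%, 22.8%, 18.6%, 41.9%, 47% and 1.51%. The 1 interaction call was that of Chrm5. The 7 genes are few, and nothing particular to receptor genes is read from these counts. The comparisons share groups with one another and are not independent.

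**Figure D2:**
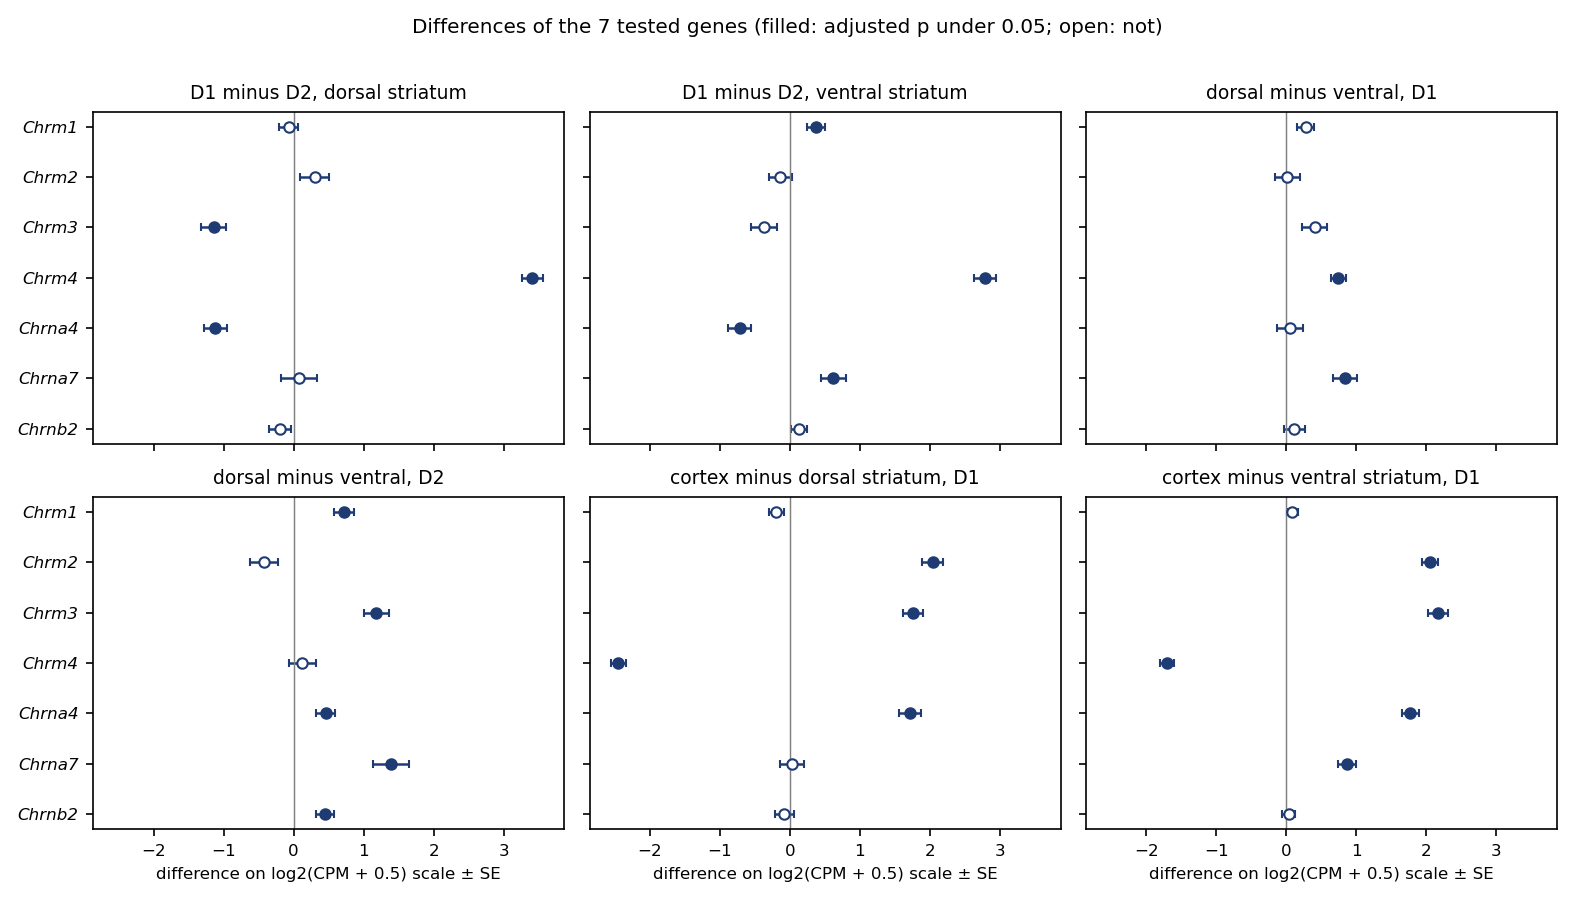
Difference ± SE on the log2(CPM + 0.5) scale (horizontal axis) for the 7 tested genes (vertical axis) in 6 comparisons, filled where the adjusted p was below 0.05. Chrm4 lies at 3.41 and 2.79 in the receptor comparisons and at -2.45 and -1.70 in the cortical ones, and Chrm2, Chrm3 and Chrna4 are above 1.70 in both cortical panels.

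Ratios between receptor genes within a library do not depend on its scaling. Reads of Chrm4 per read of Chrm1 had a median of 0.416 in D1 dorsal (0.339 to 0.613) and 0.300 in D1 ventral libraries (0.224 to 0.454). In D2 dorsal libraries the median was 0.0311 (0.00564 to 0.0771) and in D2 ventral libraries 0.0394 (0.0170 to 0.108). The D1 and D2 ranges were apart in both regions, and cortex (0.0840; 0.0525 to 0.172) lay below both D1 striatal ranges. The ratio of Chrm2 to Chrm4 had medians of 0.0758 and 0.114 in D1 dorsal and D1 ventral striatum, 0.745 and 1.53 in D2 dorsal and D2 ventral striatum, and 2.45 in cortex, where every library held more Chrm2 than Chrm4 reads (1.39 to 3.35). Reads of Chrm3 per read of Chrm1 had medians of 0.0266 in D1 dorsal, 0.0695 in D2 dorsal, 0.0230 in D1 ventral, 0.0403 in D2 ventral and 0.128 in cortical libraries. The Chrna4 to Chrnb2 ratio had medians of 1.02 and 0.942 in the D1 dorsal and D1 ventral groups, 1.62 and 1.65 in the D2 dorsal and D2 ventral groups and 3.02 in cortex. Its cortical range (2.28 to 4.98) lay above all D1 striatal libraries (0.415 to 1.498), while D2 dorsal (1.21 to 2.43) and D2 ventral libraries (1.01 to 2.69) reached into both. As a read ratio it is not a ratio of subunits, since the 2 transcripts differ in length.

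**Figure D3:**
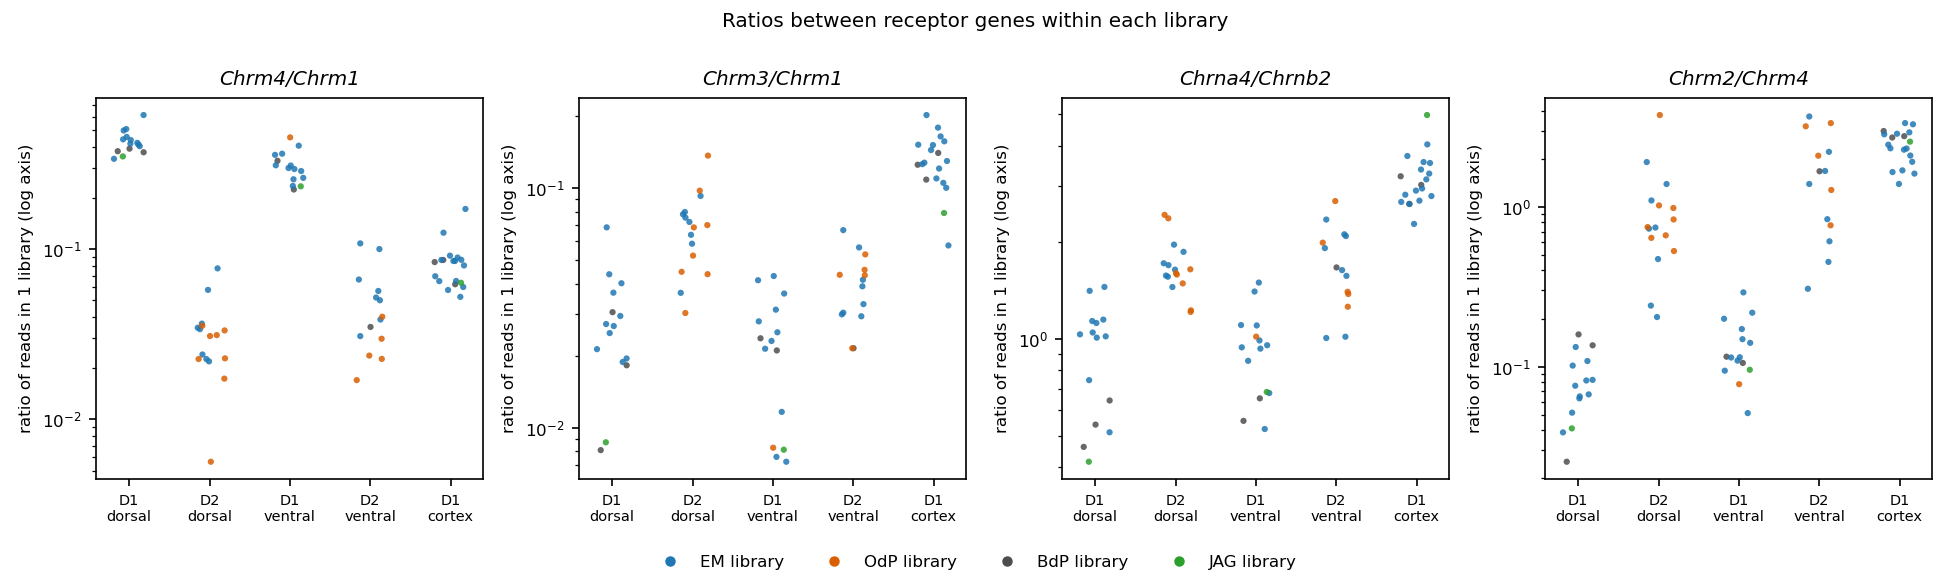
Ratio of reads between 2 receptor genes within each library (vertical axis, log scale) for the 5 groups, coloured by library name code. Chrm4 to Chrm1 is apart between D1 and D2 striatal libraries, and Chrna4 to Chrnb2 is above 2.28 in every cortical library.

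Per kilobase of exon, which allows levels to be set against each other, Chrm1 had the highest mean of the 8 genes whose models include untranslated parts, in every group: 5.06 to 8.21 CPM per kb. In D1 dorsal striatum Chrna4 was at 1.61 ± 0.69 and Chrnb2 at 1.11 ± 0.41 CPM per kb (SD, n = 15), a gap smaller than the Chrna4 SD and larger than the Chrnb2 SD. In D2 dorsal striatum they were at 3.38 ± 0.56 and 1.24 ± 0.31 (SD, n = 16), and in cortex at 5.20 ± 1.24 and 0.997 ± 0.197 (SD, n = 19). Cortical Chrm2 was at 1.36 ± 0.30 and Chrm3 at 0.897 ± 0.191 CPM per kb (SD, n = 19). Chrm4 and Chrm5 have coding-only models and were left out of this scale.

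Over all 79 libraries, the genes most like each receptor gene in log2(CPM + 0.5), among 8131 or 8132 genes averaging 5 CPM or more, were taken by Pearson r. Chrm4 was most like Drd1a (r = 0.932), the D1 receptor gene itself, then Eya1 (0.926), a listed D1 projection neuron marker, and Sfxn1 (0.891). Chrm2 was most like Efr3a (0.909), B3galt2 (0.908) and Zeb2 (0.902). Chrm3 was most like Adcy1 (0.859), Etl4 (0.827) and Chrna4 (0.807), and Chrna4 in turn was most like B3gat1 (0.860), Etl4 (0.824) and Adcy1 (0.801). Etl4 and Adcy1 were thus among the nearest genes of both. Chrm1 was most like Lphn1 (0.895), E130003G02Rik (0.861) and Dagla (0.853). Chrna7 was most like Garnl3 (0.813), Lynx1 (0.790), which encodes a nicotinic receptor modulator, and Lphn1 (0.788). Chrnb2 was most like Atg9a (0.755), RP23-440J15.7 (0.746) and Cacna1e (0.727). The points share 5 groups and their libraries' depth and name codes, so these values describe the pattern over groups. Within single groups Chrna4 and Chrnb2 had r between 0.484 and 0.691. The muscarinic gene Chrm1 and Chrnb2 had r between 0.262 and 0.831, so such values are not particular to Chrna4 and Chrnb2. Chrm1 and Chrm4 had r = 0.869 in D1 dorsal striatum, where replicate 13 was lowest in both, and between -0.02 and 0.377 in the other groups.

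The other 11 nicotinic subunit genes in the table (Chrna1, Chrna2, Chrna6, Chrna9, Chrna10, Chrnb1, Chrnb3, Chrnb4, Chrnd, Chrne and Chrng) were low or at 0, and none passed the filter. Chrnd and Chrng, genes of muscle receptor subunits, had 0 reads in all libraries. Chrna6 had reads in 1 D2 ventral (14 reads) and 1 cortical library (2 reads). Without the filter, Chrnb3 was higher in D1 cortex (0.0348 to 0.679 CPM, above 0 in 19 of 19 libraries) than in D1 dorsal striatum by 0.64 (adjusted p = 1.85e-07) and than in D1 ventral striatum by 0.53 (adjusted p = 7.92e-06). Chrna1, at 0.0906 to 0.968 CPM in cortex, was higher there by 0.50 (adjusted p = 1.18e-04) and 0.55 (adjusted p = 9.87e-06). These are tests on a few reads per library.

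Genes for proteins that assemble or modulate nicotinic receptors were described as a list of their own. All 9 present in the table were tested (Ric3, Tmem35, Lynx1, Lypd1, Lypd6, Lypd6b, Ly6h, Ly6e and Nptn). In dorsal striatum 5 of 9 were higher in D1 than in D2 neurons and 0 lower (median difference 0.65, against 0.02 over all genes, of which 25.9% were called): Lypd6b (1.94, SE 0.21, adjusted p = 3.95e-09), Lypd1 (1.55), Lypd6 (1.30), Ly6h (0.74) and Ly6e. Lypd1 and Ly6h encode members of the Ly6 family related to the nicotinic receptor brake Lynx1. In ventral striatum 2 were higher (Lypd1, 1.33; Ly6h, 0.75) and 1 lower (Nptn, -0.53), where 47.7% of all genes were called, while Lypd6b was at 0.21 (SE 0.20) and Lypd6 at -0.05 (SE 0.21). That change of the receptor difference between regions was itself called for Lypd6b (1.73, SE 0.30, adjusted p = 7.78e-05) and Lypd6 (1.35, SE 0.30, adjusted p = 0.00333), and for 0 of the other 7, against 2.64% of all genes. Dorsal against ventral striatum called 3 higher and 2 lower in D1 neurons (34.6% of all genes) and 2 higher and 5 lower in D2 neurons (28.5%); Lynx1 was higher in dorsal striatum in both (0.99 and 0.90), and Lypd1 lower in both (-1.18 and -1.39). Cortex called 4 higher and 2 lower against dorsal striatum (54.8% of all genes), led by Lypd6 (2.22) and Ly6e (1.98), and 5 higher and 3 lower against ventral striatum (62.8%), led by Lypd1 (-2.39) and Lypd6 (2.14).

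Of 21 genes for G proteins, effectors and channels downstream of muscarinic receptors, 19 or 20 were tested. D1 against D2 called 4 higher and 3 lower in dorsal striatum (list median 0.13; 25.9% of all genes called), with Gnai1, an inhibitory G protein alpha subunit gene, at 1.54 (SE 0.16, adjusted p = 1.05e-09), Gnai2 at 0.79, Prkca at 0.72 and Gnal, the striatal stimulatory alpha subunit gene, at -0.72. In ventral striatum 7 were higher and 5 lower (47.7% of all genes), with the potassium channel genes Kcnj9 (1.05) and Kcnj6 (0.75) and with Gnai1 (0.73) higher and Gnao1 lower (-0.77). The interaction, which called 2.64% of all genes, called Kcnj3, a G protein-gated potassium channel gene, at 1.08 (SE 0.20, adjusted p = 3.17e-04) and Gnai1 at 0.81 (SE 0.19, adjusted p = 0.00835). Dorsal against ventral striatum called 8 higher and 5 lower in D1 (34.6% of all genes) and 9 higher and 5 lower in D2 neurons (28.5%). Rgs4, whose product shortens Gq and Gi signals, was higher in dorsal striatum in D1 (1.37) and D2 (1.44), and Gnai2 was lower (-1.26 and -1.39). Cortex called 9 higher and 9 lower against dorsal (54.8% of all genes) and 9 higher and 10 lower against ventral striatum (62.8%). Rgs9 (-4.28 and -3.80) and Adcy5 (-3.39 and -2.82), known as striatum-enriched, were lower in cortex, and Kcnj6 (2.60 and 2.79) was higher.

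Acetylcholine breakdown genes were mostly low, and 1 or 2 of 4 were tested. Ache, the acetylcholinesterase gene, did not pass the test between receptors (-0.35, SE 0.21 in dorsal; 0.26, SE 0.15 in ventral striatum) and was higher in cortex than in D1 dorsal (0.72, adjusted p = 2.22e-04) and D1 ventral striatum (0.30, adjusted p = 0.0103). Within D1 neurons Ache was lower in dorsal than ventral libraries (-0.42, SE 0.17, adjusted p = 0.0489), and within D2 neurons the difference was 0.19 (SE 0.20). Prima1, whose product anchors the enzyme in neuronal membranes, exceeded its ventral level in the dorsal striatum of both D1 (1.38, SE 0.22) and D2 mice (1.82, SE 0.19). It was lower in D1 than in D2 dorsal striatum (-0.61, SE 0.23, adjusted p = 0.0422).

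Markers of other cell types moved with some of these groups. Summed cortical glutamatergic markers (6 genes) were 567 to 923 CPM in D1 cortex, 33.2 to 141 in D1 dorsal, 18.2 to 115 in D1 ventral, 1.56 to 37.2 in D2 dorsal and 3.92 to 84.7 CPM in D2 ventral libraries, the last with D2 ventral striatum replicate 2 at the top. Summed GABA interneuron markers (8 genes) were 295 to 728 CPM in cortex, 31.8 to 101 in D1 dorsal, 15.9 to 74.7 in D1 ventral, 8.48 to 30.9 in D2 dorsal and 15.2 to 54.2 CPM in D2 ventral libraries. Between receptors in striatum Chrna4 was higher in D2 groups, as the cholinergic sums were and the glutamatergic sums were not. Between D2 regions Chrna4 was higher dorsally while the cholinergic sums had the higher median ventrally (16.6 against 9.53 CPM), and in cortex Chrna4 and the glutamatergic sums were both at their highest. Chat, the choline acetyltransferase gene, had means of 1.65 and 2.94 CPM in D2 dorsal and ventral against 0.273 and 0.323 in D1 dorsal and ventral striatum. No marker of these 3 lists was at 0 in every library of a striatal group, and Gbx2 alone was at 0 throughout cortex. Glial lists also moved with the groups. Summed astrocyte markers (4 genes) had medians of 22.4 CPM in D1 cortex (8.16 to 50.9), 5.44 in D1 dorsal, 4.21 in D2 dorsal, 3.24 in D1 ventral and 4.68 CPM in D2 ventral libraries. Summed oligodendrocyte markers (4 genes) had medians of 71.0 CPM in D1 dorsal, 109 in D2 dorsal, 46.1 in D1 ventral, 79.1 in D2 ventral and 39.6 CPM in D1 cortex libraries, so they were higher in D2 than in D1 and higher in dorsal than in ventral medians. Microglial medians were 2.04 to 2.72 CPM and vascular medians 0.0400 to 0.340 CPM, and no gene of these 4 lists was at 0 in every library of a group. Their part in the receptor gene differences was not tested. Their part in the differences of Chrna4, Chrm2 and Chrm3 was not tested. Leaving out D2 ventral striatum replicate 2 left the ventral receptor comparison at 4 calls, where 48.3% of 11451 genes were called. That fit does not test the part of other cells in these differences.

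**Figure D4:**
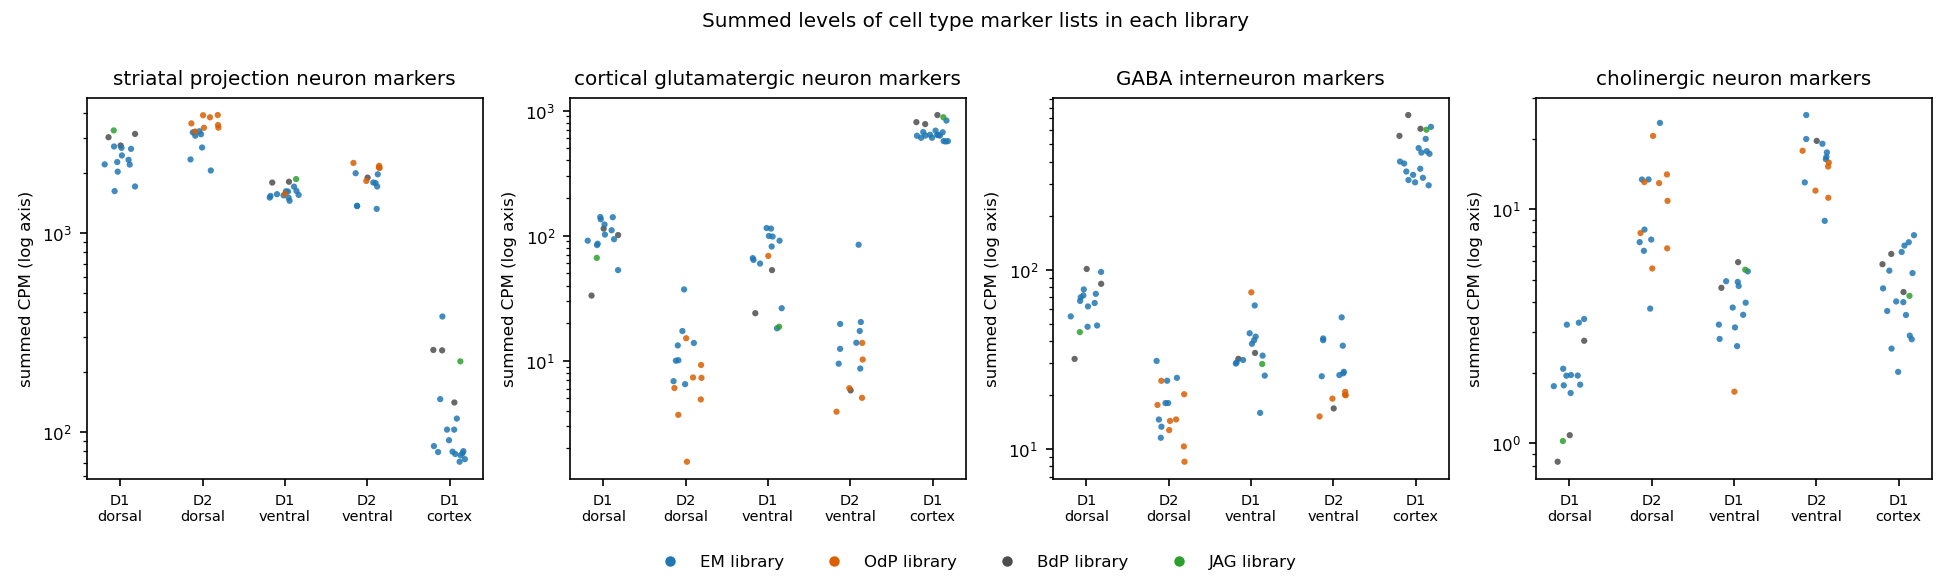
Summed CPM of 4 marker lists (vertical axis, log scale) in every library of the 5 groups, coloured by name code. Cortical glutamatergic sums lie at 567 to 923 CPM in D1 cortex and are higher in D1 than in most D2 striatal libraries, while cholinergic sums are higher in D2 striatal libraries.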

How the data were processed

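Ribosome-bound polyadenylated mRNA was amplified to cDNA and sequenced as 50-base pairs, per the labels' protocols. The authors deposited 1 table of CPM values (read counts scaled to a library total) for all libraries, per the file headers. Trim Galore 0.4.2, cutadapt 1.9.1, FastQC, HISAT2 and the GRCm38 build are named in the submitters' processing notes; the counting program, annotation and strand setting are not given in the sources used here. Column names equalled sample titles, with 0 columns left over. All values were whole multiples of 1 read (100% within 0.01 read), while column sums ran from 309566 to 401527 CPM, so the scaling total held more than the listed genes.

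Main tests used limma 3.58.1 (R 4.3.3; trended empirical Bayes) on log2(CPM + 0.5), with genes filtered at 1 CPM and p-values adjusted by Benjamini and Hochberg over all genes. edgeR 4.0.16 on the recovered reads, other pseudocounts, filters, scalings, covariates, EM libraries alone and fits without single libraries were alternatives. A block by sets of consecutive library names, the fits without the libraries farthest from their group's median profile, and all alternatives to the unfiltered fits of Chrm5, Chrna3 and Chrna5, were chosen after seeing the data. On simulated counts the dorsal receptor fit (11167 genes) recovered 96 of 96 genes changed by 1 and 37 of 99 changed by 0.5 on the log2 scale, with 4 false calls. The interaction fit (11719 genes) recovered 61 of 100 and 4 of 100. The simulation gave every gene the same spread, with no differences between name codes and no outlying libraries. These counts therefore describe that setting and not the deposited libraries.

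The 10 genes, the gene lists and the marker lists were chosen with earlier results of these data known. Named genes are the 10, the other subunit genes, up to 4 called genes with the largest differences per list and comparison, and the 3 genes most like each receptor gene; Ly6e in the dorsal receptor comparison and the genes repeated across comparisons for their values were named after these were seen. Replicate numbers follow accession order. Whether 1 pool of mice gave several regions is not stated; libraries were treated as separate samples, and p-values measure the spread between these pools. Floors and limits from reads cover counting error only.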

Additional observations from a re-analysis of the deposited data

Results flagged for a closer look

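The receptor difference of Chrm5 in dorsal striatum, less that in ventral striatum, was -0.95 on the log2(CPM + 0.5) scale (SE 0.22, adjusted p = 0.00936, limma without the filter on low values). It was picked out because a test of the difference between regions itself passed the threshold. The direction was that D1 was above D2 in ventral striatum (0.81) and not in dorsal striatum (-0.14). It was also called with a pseudocount of 0.1 (-1.79, adjusted p = 0.0446), in EM libraries alone (-1.14, adjusted p = 0.0243) and with genic read share in the model (-0.91, adjusted p = 0.0151), and it was not called by edgeR on the recovered reads (-1.99, adjusted p = 0.185). D1 ventral libraries held 17 to 97 reads of Chrm5, and 5 of 16 D2 dorsal libraries held 0. No cause was tested.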

How the results depend on the processing

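Of 857 alternatives to 70 results (differences of single receptor genes), 801 kept direction and call, 24 passed the threshold where the main result did not, 12 lost it and 20 reversed direction. The reversals were all of differences that were not called. For Chrna7, D1 against D2 in dorsal striatum turned to -0.040 under quantile normalization, -0.019 in edgeR, -0.20 with genic read share and -0.051 without D2 dorsal striatum replicate 6 (leave-one-out range -0.051 to 0.20), and cortex against dorsal striatum turned to -0.027 under median-ratio scaling, -0.18 under quantile normalization, -0.11 in edgeR, -0.024 in EM libraries and -0.10 without D1 dorsal striatum replicate 13 (range -0.10 to 0.084). Chrm1 between receptors in dorsal striatum ran from -0.12 to 0.0049 with single libraries left out. In EM libraries Chrna5 turned to -0.064 (dorsal receptor) and -0.043 (D1 regions), Chrm2 in D1 regions to -0.059, Chrm5 in D2 regions to 0.032 and Chrnb2 in cortex against dorsal striatum to 0.026. Chrm2 in D1 regions was -1.76e-05 with name code in the model, and Chrm4 in D2 regions -0.011 with genic read share. The cause was not tested.

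Beside each count of the 10 genes called stands the share of all genes called in that fit. Ventral striatum between receptors gave 2 with genic read share (10.7%). D1 regions gave 1 of 4 tested with a 5 CPM filter (35.8%), 4 under median-ratio scaling (29.2%) and 4 under quantile normalization (30.3%). D2 regions gave 3 of 3 tested with that filter (30.9%) and 2 of 6 tested in EM libraries (19.8%). Cortex against ventral striatum gave 8 without a filter (47%). The interaction gave 2 with a pseudocount of 1 (2.76%), and 1 each without a filter (1.51%), under quantile normalization (2.96%), in EM libraries (1.95%), with genic read share (3.01%) and with all 5 groups in the fit (3.36%). Without a filter, edgeR also called Chrna3 in the interaction (4.71, adjusted p = 0.0199), on few reads. Over all genes, D1 against D2 in dorsal striatum called 2871 genes, 1389 in EM libraries and 1658 with name code in the model; in ventral striatum it called 5443 and, with genic read share, 1218; and the interaction called 313, and 480 with name code. Fewer tested genes and fewer libraries are part of the stricter filter and of the EM setting. Depth limits Chrm5, Chrna3 and Chrna5, of which no library held more than 97 reads each.

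Replicate numbers follow accession order and pair nothing, and no label says which libraries share mice. Within a line, library names of different regions often run consecutively with the same mix of sexes. A block by such sets of names was fitted to the regional comparisons and the interaction, as an assumed pairing chosen after seeing the data. Deviations from the group means had median correlations of 0.398 over 14 sets for D1 regions, 0.313 over 13 sets for D2 regions, and 0.261 and 0.316 over 14 sets for cortex against dorsal and ventral striatum; between libraries of different sets the medians were 0.033, -0.099, -0.015 and 0.027. The correlation was over 0.1 in 13, 11, 11 and 11 sets, and 8, 1, 5 and 7 libraries of the first region correlated best with their own set, so the names are a hint of pairing and not a design. With the block, D1 regions gave 3 calls of 7 (43.2% of all genes), D2 regions 5 (30.5%), cortex 4 (53.8%) and 5 (66.6%), and the interaction 1 (4.33%, 514 genes). The block added calls for Chrm3 in D1 regions (0.35, adjusted p = 0.0477) and in the interaction (-0.73, adjusted p = 0.0361), and it lost Chrna3 in D2 regions without a filter (-0.29, adjusted p = 0.108). It turned uncalled differences of Chrm2 (-0.063) and Chrna5 (-0.014) in D1 regions and of Chrna7 in cortex against dorsal striatum (-0.041), and changed no other call of the 10 genes. No paired analysis was possible between receptors because D1 and D2 libraries come from different mouse lines.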
